A study of Mus musculus with 12 samples.

Results

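Cytochrome c oxidase, complex IV of the respiratory chain, is built with the help of dedicated assembly factors, and 10 of these were followed here in muscle of Cox6a2 knockout mice. The factors were chosen by name as the probe sets that carry a single gene symbol among Cox10, Cox11, Cox15, Cox17, Cox18, Cox19, Sco1, Sco2, Surf1 and Taco1. Of these 10 genes, 9 had such a probe set, 1 each, among 19938 genes tested in all. Sco2 had none, since its probe set is annotated to both Sco2 and Tymp, and it therefore has no value below.

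Expression was measured on Affymetrix mouse Gene 1.0 ST arrays in 4 groups of 3 arrays. These were KO diaphragm, WT diaphragm, KO gastrocnemius and WT gastrocnemius, from male C57Bl6 mice of 10 to 12 weeks of age. KO mice lack Cox6a2, which encodes the heart- and muscle-specific form of a complex IV subunit, in the whole body (Cox6a2-/-). WT mice were age- and sex-matched C57BL/6J animals from a commercial supplier and are not described as littermates, so genotype and origin of the animals cannot be told apart. All groups received a regular rodent diet. The labels call the 3 arrays of a group biological replicates.

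The deleted gene followed the labels. Cox6a2 averaged 6.89 ± 0.16 in KO diaphragm and 11.89 ± 0.16 on the arrays labelled WT diaphragm, and 6.93 ± 0.23 in KO gastrocnemius and 11.74 ± 0.10 in WT gastrocnemius (log2 RMA signal, SD, n = 3 each). RMA signal is a background-corrected and normalised hybridisation signal per gene, on which a difference of 1 is a doubling. The tissue label of the WT diaphragm arrays was not borne out by position and surface markers. Hoxc10, a homeobox gene of the hindlimb level, averaged 4.18 in KO diaphragm, 8.68 on the arrays labelled WT diaphragm, 8.53 in KO gastrocnemius and 8.44 in WT gastrocnemius. Upk3b, made by the mesothelial sheet on the surface of the diaphragm, averaged 9.31, 5.41, 5.16 and 5.49 in the same order of groups. Across genes, Pearson r between single arrays of labelled WT diaphragm and WT gastrocnemius was 0.989 to 0.992, and between labelled WT diaphragm and KO diaphragm 0.963 to 0.975. These arrays are called "labelled WT diaphragm" throughout, and every direction given for the diaphragm genotype comparison is drawn from them. In that comparison genotype and muscle cannot be told apart, whereas the means compared between KO diaphragm and KO gastrocnemius contain no WT array. WT arrays still enter the estimate of spread in that test, since all 12 arrays were fitted in 1 model.

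Complex IV carries 3 mitochondrially encoded core subunits and a set of nuclear-encoded ones, and its catalytic centres need heme A and copper. Cox10 and Cox15 make heme A from heme B. Cox17 receives copper in the intermembrane space and passes it to Sco1 and Sco2, which serve the copper site of COX2, and to Cox11, which serves that of COX1. Taco1 activates translation of COX1, Surf1 acts early in maturation of COX1, and Cox18 helps COX2 through the inner membrane. In humans, mutations in several of these genes cause isolated complex IV deficiency with encephalopathy or cardiomyopathy.

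The promoters of Sco1, Taco1 and Cox11 are printed because Sco1 and Taco1 were the factors that passed the test in KO diaphragm while Cox11 had the most negative difference there. Each run reads 5′ to 3′ from 250 bases before to 50 bases after the RefSeq start (build GRCm38.p6) and therefore holds the first transcribed bases of the gene. All 3 lie on chromosome 11 and the plus strand. Capitals mark matches to the ETS motif (CCGGAAG or CTTCCGG) and to the Sp1 motif (GGGCGG or CCGCCC).
Sco1, chr11:67052420-67052719: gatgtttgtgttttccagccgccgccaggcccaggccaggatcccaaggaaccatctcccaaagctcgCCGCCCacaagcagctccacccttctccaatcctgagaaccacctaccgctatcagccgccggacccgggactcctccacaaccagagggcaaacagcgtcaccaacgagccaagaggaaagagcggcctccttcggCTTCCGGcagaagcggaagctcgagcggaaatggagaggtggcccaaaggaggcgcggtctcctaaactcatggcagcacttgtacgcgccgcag
Taco1, chr11:106065841-106066140: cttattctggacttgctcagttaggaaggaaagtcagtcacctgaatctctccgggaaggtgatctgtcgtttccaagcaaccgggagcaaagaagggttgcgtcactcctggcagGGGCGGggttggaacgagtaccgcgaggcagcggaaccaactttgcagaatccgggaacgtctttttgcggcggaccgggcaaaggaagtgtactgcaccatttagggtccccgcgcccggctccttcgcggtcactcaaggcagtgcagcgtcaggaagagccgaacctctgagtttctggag
Cox11, chr11:90637934-90638233: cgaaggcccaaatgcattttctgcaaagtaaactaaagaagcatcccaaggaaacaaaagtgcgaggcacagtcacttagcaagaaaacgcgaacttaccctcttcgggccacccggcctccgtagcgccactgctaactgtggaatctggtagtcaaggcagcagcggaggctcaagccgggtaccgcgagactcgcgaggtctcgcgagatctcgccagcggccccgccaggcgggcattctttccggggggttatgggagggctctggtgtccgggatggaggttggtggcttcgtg

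Promoters of 8 of the 10 factors were matched by symbol in RefSeq: Cox10, Cox11, Sco1 and Taco1 on chromosome 11, Cox15 on 19, Cox19 on 5, Sco2 on 15 and Surf1 on 2. Cox17 and Cox18 were not matched. GGGCGG, on either strand, was present in 7 of the 8 windows, all but that of Cox11, against 46.2% of 21263 protein-coding windows and 35.7% of all 32851 windows of the same length. CCGGAAG was present in 4 of 8, namely Cox10, Cox15, Sco1 and Surf1, against 11.6% of protein-coding and 8.86% of all windows. In Sco1 it lay 45 to 39 bases before the start, and in Taco1 the single match was GGGCGG at 134 to 129 bases before the start. The YY1 motif AANATGGCG was found in Cox10 alone, against 3.12% of protein-coding and 2.38% of all windows. The NRF1 motif (GCGCA, any base, GCGC) was found in 0 of 8 windows, against 6.38% and 4.6%, and the ERR motif TNAAGGTCA in 0 of 8, against 1.03% and 1.28%. No matches in these windows overlapped each other. A match of letters is a description of the sequence, not of a bound site.

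Most of these promoters face a neighbour. In 6 of the 8 matched factors (75%) a gene on the opposite strand starts within 200 bases, against 9.48% of 17492 protein-coding genes and 9.22% of 27025 genes of all kinds. Starts diverge in 5 of them, which are Cox10 with 2810001G20Rik at 12 bases, Cox15 with Cutc at 23, Taco1 with Taco1os at 50, Sco1 with Adprm at 52 and Cox11 with Stxbp4 at 76. Surf1 and Surf2 overlap at their starts, which are 122 bases apart.

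**Figure D1:**
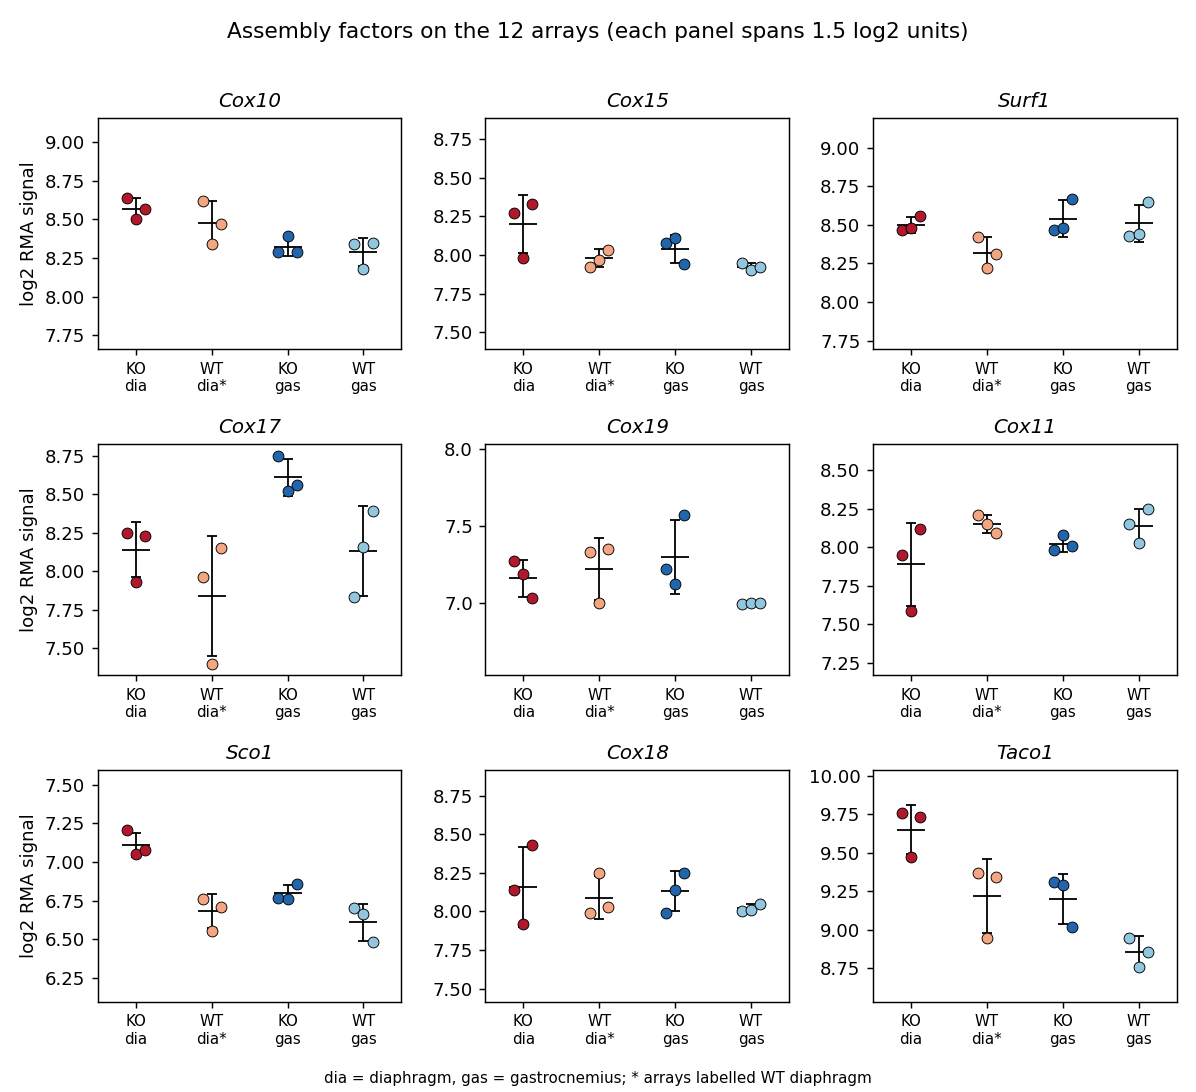
Log2 RMA signal of the 9 assembly factors with a value (vertical axis, each panel spanning 1.5 log2 units) on every array of the 4 groups (horizontal axis); points are arrays, horizontal lines group means and bars SD (n = 3). Sco1 and Taco1 stand highest in KO diaphragm, where the Sco1 arrays lie at 7.05 to 7.21 and the Taco1 arrays at 9.47 to 9.76.

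Neither heme A enzyme was called in any of the 5 comparisons. Cox10, the farnesyltransferase that makes heme O, measured 8.64, 8.50 and 8.57 in KO diaphragm and 8.62, 8.34 and 8.47 on the arrays labelled WT diaphragm. It measured 8.29, 8.39 and 8.29 in KO gastrocnemius and 8.34, 8.18 and 8.35 in WT gastrocnemius. KO and WT arrays overlapped for Cox10 in both muscles, with differences of 0.09 (95% confidence interval -0.11 to 0.29) by diaphragm label and 0.04 (-0.16 to 0.24) in gastrocnemius. Cox15, the heme A synthase, measured 8.27, 7.98 and 8.33 in KO diaphragm and 7.92, 7.97 and 8.03 on the arrays labelled WT diaphragm. In KO gastrocnemius its arrays gave 8.08, 8.11 and 7.94, and in WT gastrocnemius 7.95, 7.90 and 7.92. Cox15 was above every labelled WT diaphragm array in 2 of 3 KO diaphragm arrays, but KO replicate 2 was within their range. The Cox15 difference by diaphragm label was 0.22 (SE 0.10, limma adjusted p = 0.12), and it passed the test without KO diaphragm replicate 2 (0.33, adjusted p = 0.025). In gastrocnemius it was 0.12 (-0.09 to 0.34).

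Among the copper factors, Sco1 passed the test by diaphragm label. Sco1, the copper-binding protein that serves COX2, measured 7.21, 7.05 and 7.08 in KO diaphragm and 6.76, 6.55 and 6.71 on the arrays labelled WT diaphragm. All 3 KO arrays lay above all 3 labelled WT arrays, a 1.35-fold difference of 0.44 log2 units (SE 0.09, limma adjusted p = 0.0028). In gastrocnemius it measured 6.77, 6.76 and 6.86 in KO and 6.70, 6.66 and 6.48 in WT mice. The KO arrays again lay above the WT arrays, by 0.19 (-0.01 to 0.38), but this did not pass the test (adjusted p = 0.34).

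Cox17, the copper chaperone that feeds Sco1 and Cox11, was the most variable factor within groups when the 4 groups were pooled, though not in each group. It measured 8.25, 7.93 and 8.23 in KO diaphragm and 7.96, 7.40 and 8.15 on the arrays labelled WT diaphragm, which overlapped. In gastrocnemius it measured 8.75, 8.52 and 8.56 in KO and 7.83, 8.16 and 8.39 in WT mice. Here every KO array lay above every WT array, and the difference of 0.48 (SE 0.18, 1.40-fold) was exceeded in size by 2.13% of all genes, yet it did not pass the test (adjusted p = 0.2). Its SD was 0.39 on the arrays labelled WT diaphragm and 0.29 in WT gastrocnemius, against a median residual SD of 0.138 over all genes. In KO diaphragm its SD was 0.18, below that of Cox11 (0.27), and in KO gastrocnemius 0.12, below that of Cox19 (0.24).

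Cox19, a small intermembrane-space protein that works with Cox11 in yeast, measured 7.27, 7.19 and 7.03 in KO diaphragm and 7.33, 7.00 and 7.35 on the arrays labelled WT diaphragm. These overlapped, with a difference of -0.06 (-0.33 to 0.20). In gastrocnemius it measured 7.22, 7.12 and 7.57 in KO and 6.99, 7.00 and 7.00 in WT mice. All KO arrays lay above the tightly grouped WT arrays, by 0.31 (SE 0.13), with an adjusted p of 0.24. Cox11, the factor that serves the copper site of COX1, measured 7.95, 7.59 and 8.12 in KO diaphragm and 8.21, 8.15 and 8.09 on the arrays labelled WT diaphragm. Its groups overlapped through KO diaphragm replicate 3. The difference of -0.27 (SE 0.12) had an adjusted p of 0.11, but passed the test without that array (-0.38, adjusted p = 0.029) and after quantile normalisation (-0.34, adjusted p = 0.046). In gastrocnemius Cox11 measured 7.98, 8.08 and 8.01 in KO and 8.15, 8.03 and 8.25 in WT mice, which overlapped (-0.12, interval -0.37 to 0.13).

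Of the factors that act on the core subunits, Taco1 passed the test. Taco1 measured 9.76, 9.47 and 9.73 in KO diaphragm and 9.37, 8.95 and 9.34 on the arrays labelled WT diaphragm. The groups did not overlap, and the difference was 0.43 (SE 0.13, 1.35-fold, limma adjusted p = 0.02). In gastrocnemius it measured 9.31, 9.29 and 9.02 in KO and 8.95, 8.76 and 8.86 in WT mice. These groups did not overlap either, and the difference was 0.35 (SE 0.13, 1.27-fold), but it did not pass the test (adjusted p = 0.2).

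Surf1, the early COX1 maturation factor, measured 8.47, 8.48 and 8.56 in KO diaphragm and 8.42, 8.22 and 8.31 on the arrays labelled WT diaphragm. The KO arrays all lay above, by 0.19 (-0.02 to 0.39, adjusted p = 0.17). In gastrocnemius Surf1 measured 8.47, 8.48 and 8.67 in KO and 8.43, 8.44 and 8.65 in WT mice, which overlapped almost fully (0.03, interval -0.17 to 0.24). Cox18, the inner-membrane translocase of COX2, measured 8.14, 7.92 and 8.43 in KO diaphragm and 7.99, 8.25 and 8.03 on the arrays labelled WT diaphragm. It measured 7.99, 8.14 and 8.25 in KO gastrocnemius and 8.00, 8.01 and 8.05 in WT gastrocnemius. Neither muscle separated the Cox18 arrays, with differences of 0.07 (-0.19 to 0.33) by diaphragm label and 0.11 (-0.15 to 0.37) in gastrocnemius.

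In KO diaphragm against the arrays labelled WT diaphragm, Sco1 and Taco1 were higher. None of the other 7 of the 9 factors was called, with Cox11 the most negative (-0.27, interval -0.52 to -0.01) and called lower in the alternatives given above. That is 2 of 9 factors called at an adjusted p under 0.05, against 27.6% of all genes in either direction, 16.3% higher and 11.2% lower. The share of called factors was thus near that of all genes. Among the 9969 genes at or above the median signal, 4556 were called, 2 of them factors, so the factors lay below that brighter background. The differences were positive in 7 of 9 factors, with a median of 0.19, against 43.2% of all genes and a median of -0.04. Arrays lay all above for 3 of 9 factors (Sco1, Surf1 and Taco1), against 20.9% of all genes. In size, the changes of Sco1 and Taco1 were exceeded by 18.3% and 18.4% of all genes. Sco1 stayed past the threshold when any 1 array was left out (difference 0.38 to 0.48), and had an adjusted p of 0.051 with the methods' t-test. Taco1 lost the call without labelled WT diaphragm replicate 2 (0.30, adjusted p = 0.09), without KO diaphragm replicate 1 (0.38, 0.068), without KO diaphragm replicate 3 (0.40, 0.07) and with the methods' t-test (adjusted p = 0.17).

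Markers of other cells and of body position moved with the same arrays. Of the marker lists, 8 of 8 mesothelium, 9 of 10 macrophage, 4 of 5 endothelium, 4 of 5 measured adipocyte and 3 of 3 measured B cell genes were called higher in KO diaphragm, while 8 of 10 hindlimb position genes were called lower. Of 9 skeletal muscle genes, 4 were higher and 2 lower. The mean log2 level of the mesothelium list per array was 7.44 to 8.24 in KO diaphragm and 5.40 to 5.44 on the arrays labelled WT diaphragm. For macrophage genes it was 7.52 to 7.91 and 6.39 to 6.83, for endothelium 9.00 to 9.25 and 8.19 to 8.56, and for the hindlimb list 5.36 to 5.56 and 6.63 to 6.85, in the same order of groups. Adipocyte genes averaged 6.50 to 8.43 and 5.84 to 6.15, B cell genes 5.63 to 6.66 and 4.26 to 4.44, and skeletal muscle genes 12.59 to 12.62 and 12.65 to 12.87. The part of these cells in the Sco1 and Taco1 differences was not tested. In pieces of whole muscle, fewer cells of a type and less RNA per cell cannot be told apart.

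**Figure D2:**
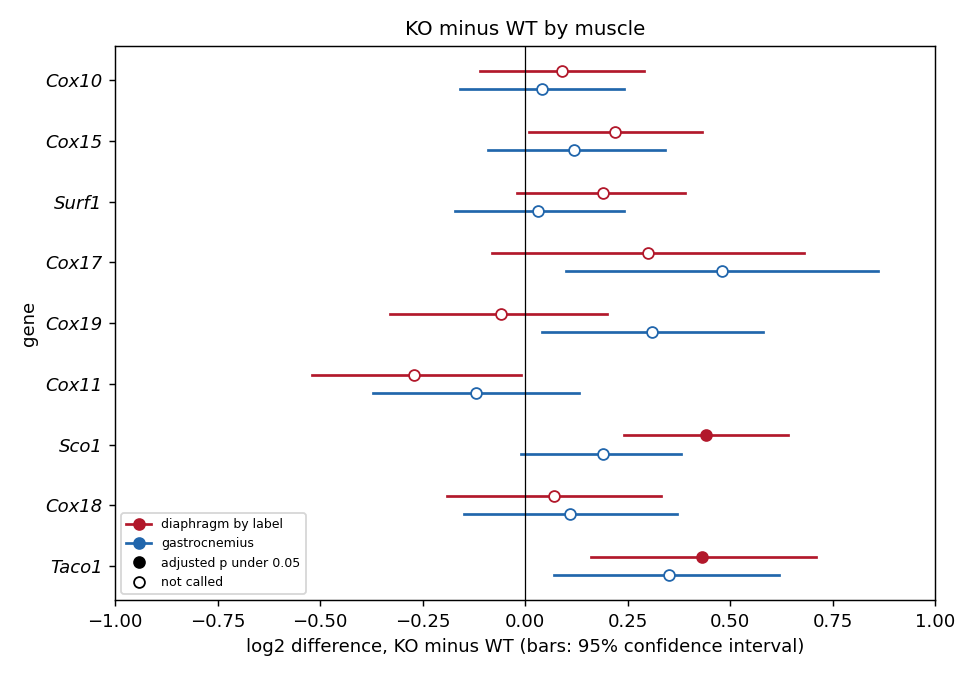
KO minus WT difference in log2 RMA signal (horizontal axis) of each assembly factor (vertical axis), by diaphragm label (red) and in gastrocnemius (blue); bars are 95% confidence intervals and filled points have an adjusted p under 0.05. The filled points are Sco1 (0.44) and Taco1 (0.43) by diaphragm label, and 8 of 9 gastrocnemius points lie right of 0.

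In KO gastrocnemius against WT gastrocnemius, where both tissue labels were borne out, no assembly factor was called. The background was low too, with 0.592% of all genes called. The differences were small and mostly positive, in 8 of 9 factors with a median of 0.12, against 46.5% of all genes and a median of -0.01. At an unadjusted p under 0.05, 3 factors were higher (Cox17, Taco1 and Cox19, limma) and none lower, against 8.11% of all genes higher. The methods' t-test gave Taco1 alone before adjustment and none after it. KO arrays lay all above WT arrays for Cox17, Cox19, Sco1 and Taco1, which is 4 of 9, against 12.3% of all genes. Mesothelium genes averaged 5.27 to 5.32 on KO and 5.41 to 5.67 on WT gastrocnemius arrays, macrophage genes 6.42 to 6.60 and 6.67 to 7.00, and endothelium genes 8.18 to 8.32 and 8.06 to 8.23. Adipocyte genes averaged 5.94 to 6.34 and 6.43 to 7.17, B cell genes 4.13 to 4.44 and 3.92 to 4.53, hindlimb genes 6.65 to 6.73 and 6.68 to 6.73, and skeletal muscle genes 12.78 to 12.87 and 12.73 to 12.85. No gene of the marker lists was called in gastrocnemius, where few genes of any kind were. The mesothelium, macrophage and adipocyte levels were lower on all KO than on all WT arrays. In these 3 lists 0 of 8, 0 of 10 and 0 of 5 differences were positive, against 46.5% of all genes. Positive differences were found in 3 of 5 endothelium, 3 of 3 B cell, 7 of 9 skeletal muscle and 5 of 10 hindlimb genes. The part of these cells in the factor differences was not tested.

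Whether the genotype difference by diaphragm label differed from that in gastrocnemius was tested as an interaction, diaphragm difference minus gastrocnemius difference. The contrast rests on the arrays labelled WT diaphragm, so genotype and muscle cannot be told apart in it either. None of the 9 factors was called, against 14.8% of all genes, and none had an unadjusted p under 0.05, against 15.4% of genes higher and 12.1% lower. The widest contrasts were Cox19 (-0.37, interval -0.75 to 0.01, adjusted p = 0.19) and Sco1 (0.25, interval -0.03 to 0.53, adjusted p = 0.24). Sco1 was thus past the threshold by diaphragm label and not in gastrocnemius, but a difference between these genotype comparisons was not shown for it. For Taco1 the interaction was 0.09 (-0.30 to 0.47).

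Within KO mice, Sco1 and Taco1 were higher in diaphragm than in gastrocnemius. This comparison shares the KO diaphragm arrays with the genotype comparison above, and the values are given side by side with it only. Sco1 was higher by 0.31 (SE 0.09, 1.24-fold, adjusted p = 0.02) and Taco1 by 0.45 (SE 0.13, 1.37-fold, adjusted p = 0.016), which is 2 of 9 factors, against 28.9% of all genes called in either direction and 17.7% higher. Their arrays did not overlap, nor did those of Cox10 (0.25, interval 0.04 to 0.45, adjusted p = 0.064), so that 3 of 9 factors lay all above, against 25.7% of all genes. Cox17 was the only factor whose KO diaphragm arrays lay all below, against 19% of all genes. Its difference was -0.47 (interval -0.85 to -0.09, adjusted p = 0.062), and it passed the test in the KO arrays alone (adjusted p = 0.012) and without the arrays labelled WT diaphragm (0.028). It was also called lower after median centring (-0.54, 0.04) and quantile normalisation (-0.50, 0.045). The Sco1 call was lost under the same scalings, median centring (0.24, adjusted p = 0.077) and quantile normalisation (0.23, 0.1), and without KO diaphragm replicate 1 (0.26, 0.082), KO gastrocnemius replicate 1 (0.30, 0.065) or KO gastrocnemius replicate 2 (0.29, 0.065). The Taco1 call was lost without KO diaphragm replicate 1 (0.40, 0.059), KO diaphragm replicate 3 (0.41, 0.055) or KO gastrocnemius replicate 3 (0.36, 0.079), and with the methods' t-test (0.096). The marker lists moved with this difference as well, with 8 of 8 mesothelium, 10 of 10 macrophage, 5 of 5 endothelium, 4 of 5 adipocyte and 3 of 3 B cell genes called higher in KO diaphragm and 8 of 10 hindlimb genes called lower. Of 9 skeletal muscle genes, 4 were higher and 2 lower. The part of these cells in the Sco1 and Taco1 differences was not tested here either.

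Between the arrays labelled WT diaphragm and WT gastrocnemius, no assembly factor was called, against 0.461% of all genes. Taco1 alone had an unadjusted p under 0.05 (0.36, interval 0.09 to 0.64, limma adjusted p = 0.24), against 8.48% of genes higher, and the methods' t-test gave none. Surf1 alone was separated, with labelled WT diaphragm arrays all below (-0.19, adjusted p = 0.43), against 5.91% of all genes. Cox17 (-0.29), Cox19 (0.23) and Cox10 (0.19) overlapped.

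**Figure D3:**
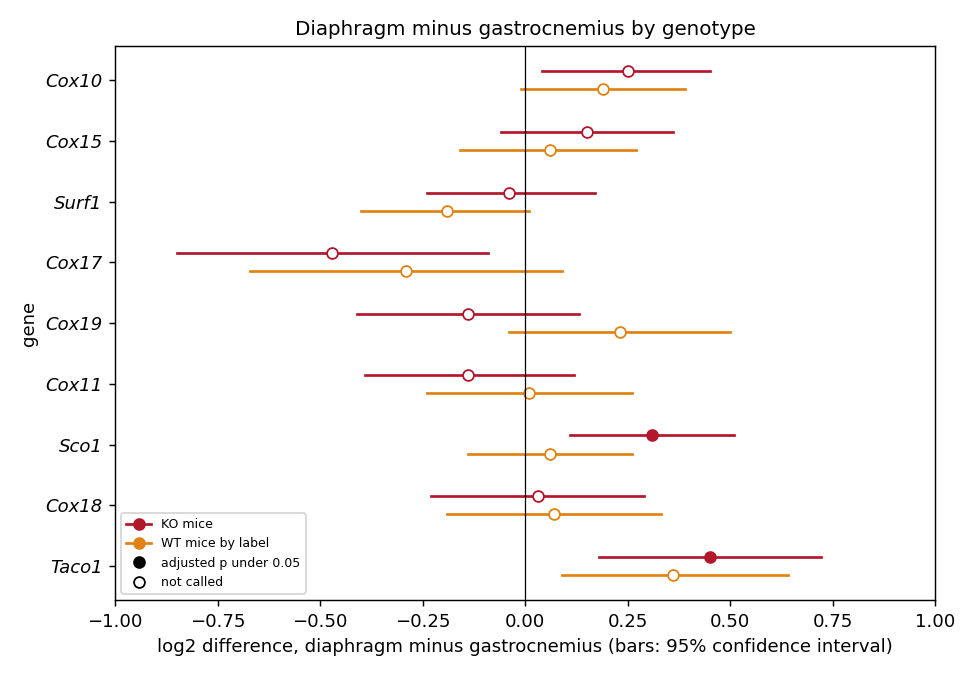
Diaphragm minus gastrocnemius difference in log2 RMA signal (horizontal axis) of each assembly factor (vertical axis) in KO mice (red) and in WT mice by label (orange); bars are 95% confidence intervals and filled points have an adjusted p under 0.05. Sco1 (0.31) and Taco1 (0.45) are filled in KO mice, and Cox17 lies furthest left in both genotypes (-0.47 in KO and -0.29 in WT mice by label).

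Single arrays moved several factors at once. The mean log2 signal over the 9 factors was 8.22, 8.01 and 8.23 in KO diaphragm, 8.06, 7.87 and 8.05 on the arrays labelled WT diaphragm, 8.10 to 8.13 in KO gastrocnemius and 7.90 to 7.99 in WT gastrocnemius. On KO diaphragm replicate 2, 1 of 9 factors was above its group mean, and on labelled WT diaphragm replicate 2 this held for 2 of 9. Over the 12 arrays, Taco1 followed Cox10 and Sco1 most closely (Pearson r = 0.85 for each), but with group means removed r was 0.78 with Cox10 and 0.45 with Sco1. Cox11 and Cox15 had r = -0.11 over all arrays and 0.76 within groups. These values describe 12 arrays that share their normalisation and, within groups, their condition.

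The genes with the pattern most like a factor over the 12 arrays were, for Sco1, Rasip1 (Pearson r = 0.978), a Ras-interacting protein of blood vessel endothelium, for Taco1, Clybl (0.971), a mitochondrial citramalyl-CoA lyase, and for Cox17, Ndufb2 (0.939), a subunit of complex I. They were picked as the best of all genes tested, so their r is a description only.

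Other genes of the pathway changed in the same arrays. The 15 measured genes listed as complex IV subunits, without Cox6a2, were mostly higher by diaphragm label. Of these, 12 were called higher and none lower (median 0.53), against 27.6% of all genes called. The 3 not called were Cox4i2 (0.03), Cox6b2 (-0.01) and Cox7a2l (0.11). Cox7a1, the muscle form of subunit 7a, was higher by 0.70 (SE 0.09, adjusted p = 5.7e-05), Cox6c by 0.62 (SE 0.09, 0.00015) and Cox7b by 0.61 (SE 0.11, 0.00073). In gastrocnemius none was called and 5 had an unadjusted p under 0.05 (limma), all higher, against 8.11% of all genes, and the median of the list was 0.16. Cox5a (0.39, adjusted p = 0.098) and Cox7a1 (0.27, adjusted p = 0.17) had the smallest p. Within KO mice, 6 of these 15 genes were called higher in diaphragm, against 17.7% of all genes.

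Of 19 measured assembly factors outside the 10, 3 were higher and 1 lower by diaphragm label, with a median of 0.17. This count lies below the 27.6% of all genes called in either direction. Timm21, a translocase component that also serves assembly intermediates, was higher by 0.81 (SE 0.18, adjusted p = 0.0032), Cmc2 by 0.54 (SE 0.15, 0.013) and Lrpprc, which stabilises mitochondrial mRNAs, by 0.47 (SE 0.09, 0.0016). Coa6, a copper-binding partner of the Sco proteins, was the 1 that was lower (-0.27, SE 0.08, adjusted p = 0.025), and was named after its value was seen. In gastrocnemius none of the 19 was called, but 17 differences were positive with a median of 0.21, against 46.5% of all genes, and 7 had an unadjusted p under 0.05, all higher, against 8.11% of all genes. The smallest p belonged to Cmc2 (0.55, adjusted p = 0.1) and Coa8 (0.36, adjusted p = 0.12). Cmc2 passed the test without labelled WT diaphragm replicate 2 (adjusted p = 0.042). Between KO diaphragm and KO gastrocnemius, 3 of the 19 were called higher and 3 lower, against 28.9% of all genes called. Timm21 (0.65, adjusted p = 0.011) and Lrpprc (0.50, 0.00087) were among those higher and Coa6 (-0.51, 0.00034) among those lower. Cmc2 was not called there (0.26, adjusted p = 0.22).

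Of 11 copper genes, 3 were called higher by diaphragm label and none lower (median 0.23), near the background of 27.6% of all genes called. Atox1, the copper chaperone of the secretory pathway, was higher by 0.50 (SE 0.14, adjusted p = 0.014), Slc25a3, the mitochondrial phosphate and copper carrier, by 0.36 (SE 0.09, 0.0079) and Slc31a2 by 0.36 (SE 0.11, 0.023). In gastrocnemius no copper gene was called or had an unadjusted p under 0.05 (limma; median 0.14), and the smallest p belonged to Commd1 (0.23, adjusted p = 0.33) and Mt1 (0.42, adjusted p = 0.34). Between KO diaphragm and KO gastrocnemius 2 were called, both higher, against 28.9% of all genes called. These were Slc31a2 (0.55, adjusted p = 0.0013) and Slc25a3 (0.35, 0.0082), while Atox1 was not called (0.02, 0.93). Of 10 measured heme synthesis genes, 3 were called higher by diaphragm label and none lower (median 0.18), again near the 27.6% of all genes. Alas2, the erythroid form of the first enzyme of heme synthesis, was higher by 1.26 (SE 0.23, adjusted p = 0.00098), Ppox by 0.40 (SE 0.10, 0.0079) and Alad by 0.39 (SE 0.11, 0.018). In gastrocnemius none was called (median 0.09). Of the 10, 1 was higher at an unadjusted p under 0.05 (limma), against 8.11% of all genes higher. That gene, Uros, was higher by 0.41 (SE 0.09, adjusted p = 0.068) and passed the test after median centring (0.45, adjusted p = 0.041) and among genes at or above the median signal (0.046). Cpox had the next smallest p (0.17, adjusted p = 0.41). Between the KO muscles 3 of the 10 heme synthesis genes were called, all higher in diaphragm. Over all genes 28.9% were called and 17.7% were higher, so this count too was near the background. Alas2 (1.19, adjusted p = 0.0014) and Alad (0.65, 0.00054) were among them, while Ppox was not called (0.22, 0.11). Over the 4 lists together, 22 of 55 genes were called by diaphragm label, 21 higher and 1 lower, against 16.3% of all genes higher and 11.2% lower. Of these 22, 12 were complex IV subunits.

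**Figure D4:**
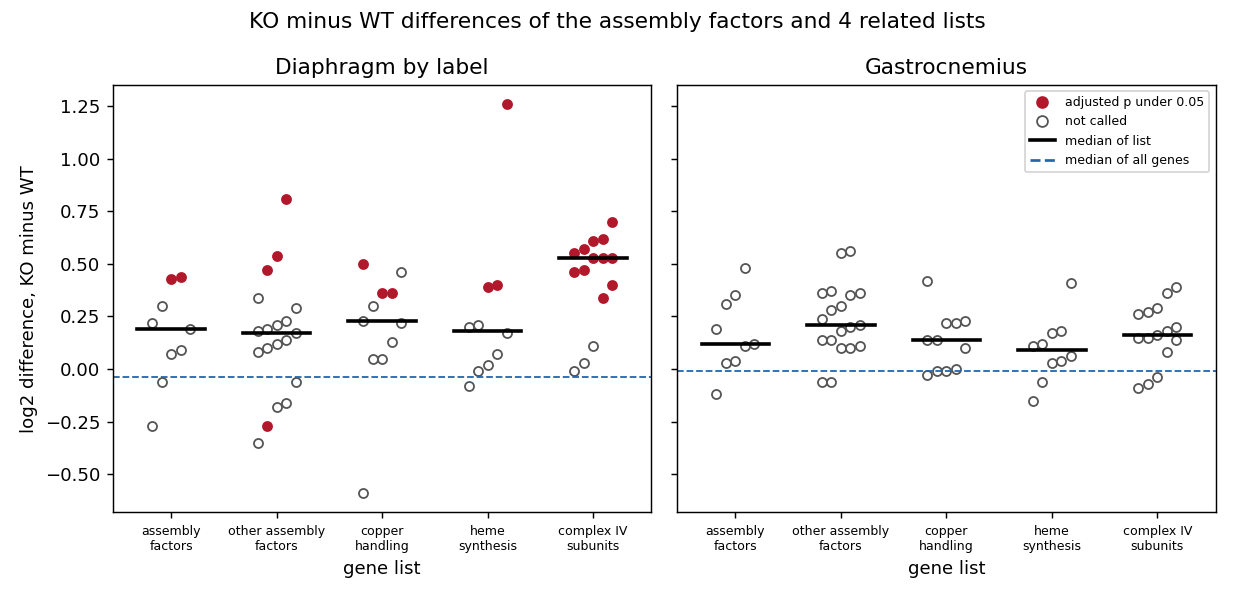
KO minus WT difference in log2 RMA signal (vertical axis) of single genes in the assembly factors and 4 related lists (horizontal axis), by diaphragm label (left) and in gastrocnemius (right); filled points have an adjusted p under 0.05, black lines are list medians and the dashed line is the median of all genes. By diaphragm label 12 of 15 genes of the complex IV subunit list are filled, against 2 of 9 assembly factors, and no point is filled in gastrocnemius.

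Of the 6 opposite-strand genes that start within 200 bases of an assembly factor, 4 had a value. By diaphragm label 1 of these 4 was called, against 27.6% of all genes. These neighbours were picked by position after the values of the factors were known. Stxbp4, a syntaxin-binding protein gene that faces Cox11, measured 6.71, 6.48 and 6.90 in KO diaphragm and 7.79, 8.16 and 8.06 on the arrays labelled WT diaphragm. It was lower in KO diaphragm with no overlap, by a log2 difference of -1.31 (SE 0.16, limma adjusted p = 3.9e-05), while Cox11 itself differed by -0.27. Genotype and muscle cannot be told apart in this comparison. In gastrocnemius Stxbp4 measured 8.32, 7.86 and 8.47 in KO and 7.66, 7.76 and 8.06 in WT mice, which overlapped (0.39, adjusted p = 0.25). The KO diaphragm arrays also lay below all KO gastrocnemius arrays, a comparison not tested for this gene. Adprm, which faces Sco1, differed by 0.09 (adjusted p = 0.68) by diaphragm label and by 0.31 (adjusted p = 0.3) in gastrocnemius. Cutc, facing Cox15, differed by -0.20 (0.17) and 0.03 (0.93), and Surf2, next to Surf1, by -0.01 (0.95) and 0.09 (0.75), diaphragm label first.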

How the data were processed

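Total RNA (100 ng) of each sample was hybridised to 1 mouse Gene 1.0 ST array, 12 in all. The authors scanned the arrays and made the deposited log2 values by RMA sketch in Affymetrix Expression Console (version not given in the sources used here), which corrects background, normalises between arrays and summarises probes per transcript cluster. Such values compress differences at low signal, and the number of arrays limits precision. Of 35556 probe sets, 21789 carried 1 gene symbol, 1621 several and 12146 were not listed in the platform annotation. The brightest probe set by mean signal stood for each of 19938 genes.

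Group means of all 12 arrays were fitted in 1 model with limma 3.58.1 (lmFit and eBayes, R 4.3.3, 8 residual degrees of freedom), tested two-sided in 5 contrasts and adjusted by Benjamini-Hochberg over all genes (threshold 0.05). The fit was tested on simulated data. Replicate numbers had no stated pairing. Promoters came from RefSeq (GRCm38.p6). All 10 factors were named, with Cox6a2, 2 markers, and from each related list the 3 largest called differences per genotype contrast or, where none was called, the 2 smallest p. Factors, lists and markers were chosen with earlier results of these data known. Symbols without a single-gene probe set (Sco2 and 8 genes of the related lists) were left out. Alternatives covered the arrays fitted, a replicate block, the variance prior, scaling, a signal filter, the probe set rule, the methods' unpaired t-test and leaving out each array. The methods name this t-test for group comparisons in general and gene set enrichment for the arrays. Its Benjamini-Hochberg adjustment was added here. Alternatives for the related lists were added after seeing the data.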

Additional observations from a re-analysis of the deposited data

Results flagged for a closer look

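The genotype difference by diaphragm label differed from that in gastrocnemius in 5 of the 55 related pathway genes (limma interaction contrast, Benjamini-Hochberg adjustment over all 19938 genes) and in none of the 9 assembly factors. Over all genes 14.8% were called in this contrast, so the count of 5 is below the background. The difference of differences was 1.41 for Alas2 (adjusted p = 0.0092), whose KO minus WT difference was 1.26 by diaphragm label and -0.15 in gastrocnemius. It was 0.63 for Cox8a (adjusted p = 0.0055, from 0.55 and -0.09), 0.54 for Cox6c (0.01, from 0.62 and 0.08) and 0.43 for Cox7a1 (0.036, from 0.70 and 0.27). For Coa6 it was -0.41 (0.028, from -0.27 and 0.14). Over 19 alternatives, added after seeing the data, Alas2, Cox6c and Cox8a were called in each. Cox7a1 was not called in 12 of them (adjusted p = 0.054 to 0.15). These included the fixed replicate block (0.057), median centring (0.35, 0.074), quantile normalisation (0.31, 0.15) and leaving out any 1 array other than WT gastrocnemius replicates 2 and 3 and KO diaphragm replicate 1. Coa6 was not called in 6 (adjusted p = 0.052 to 0.07), without labelled WT diaphragm replicate 3, WT gastrocnemius replicate 1 or 3, KO diaphragm replicate 1, or KO gastrocnemius replicate 1 or 2. All 5 rest on the arrays labelled WT diaphragm, so genotype and muscle cannot be told apart in them. No test for outlying arrays was run in groups of 3, beyond leaving out each array in turn.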

How the results depend on the processing

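Of the single-factor differences under the alternatives that kept all arrays of the groups compared, 386 kept direction and side of the threshold, 8 newly passed it, 5 no longer passed it and 6 changed sign. Those 6 were all small: after median centring Cox10 in the interaction (-0.02) and Cox18 in KO diaphragm minus KO gastrocnemius (-0.04), and after quantile normalisation Cox10 (-0.02) and Surf1 (-0.02) in gastrocnemius, Cox11 between the WT groups (-0.03) and Cox18 in KO diaphragm minus KO gastrocnemius (-0.01). The cause was not tested. Neither scaling moved the median of all genes by over 0.1.

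Factors called numbered 2 by diaphragm label (0 with the methods' t-test after adjustment, where Sco1 and Surf1 passed unadjusted; 1 to 3 with 1 array left out) and 2 in KO diaphragm minus KO gastrocnemius (4 among genes at or above the median signal, where fewer genes are tested, 1 with the methods' t-test, 0 to 4 with 1 array left out). The 4 were Sco1, Taco1 and Cox10, higher, and Cox17, lower; without KO diaphragm replicate 1 there were 0. After median centring and after quantile normalisation the count stayed 2, with Taco1 (higher) kept and Cox17 (lower) in place of Sco1. In gastrocnemius, between the WT groups and in the interaction the count was 0 under every alternative run, each array left out included. Related pathway genes called numbered 22 by diaphragm label (3 with the methods' t-test, which were Cox6c, Cox7a1 and Cox8a; 16 to 24 with 1 array left out), 0 in gastrocnemius (1, Cmc2, with the fixed replicate block; 1, Uros, after median centring; 1, again Uros, among genes at or above the median signal; 0 to 1 with 1 array left out), 5 in the interaction (5 with the fixed replicate block, where Coa7 was called and Cox7a1 was not; 8 among genes at or above the median signal; 3 to 7), 17 in KO diaphragm minus KO gastrocnemius (14 to 19) and 0 between the WT groups (0 to 1).

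With 1 array left out, differences of uncertain sign ranged as follows. Cox10 ranged from -0.01 to 0.13 in the interaction and from -0.02 to 0.07 in gastrocnemius. Cox11 ranged from -0.26 to 0.01 in KO diaphragm minus KO gastrocnemius and from -0.05 to 0.06 between the WT groups. Cox18 ranged from -0.17 to 0.08 in the interaction, from -0.10 to 0.15 in KO diaphragm minus KO gastrocnemius, from -0.06 to 0.19 by diaphragm label and from -0.01 to 0.12 between the WT groups. Surf1 ranged from -0.07 to 0.03 in KO diaphragm minus KO gastrocnemius and from -0.03 to 0.10 in gastrocnemius, and Taco1 from -0.05 to 0.18 in the interaction.

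No source states that the replicate numbers pair arrays, so they were not taken to do so. Same-numbered arrays of different groups had residual correlations of -0.10 to 0.16 (18 pairs, 2 over 0.1). Differently numbered arrays had -0.23 to 0.17 (36 pairs, 2 over 0.1). With 3 arrays per group these values cannot exclude a pairing. With the replicate number as a fixed block 2 factors were called by diaphragm label, 3 in KO diaphragm minus KO gastrocnemius (Cox17 joined, adjusted p = 0.041) and 0 elsewhere; over all genes the counts were 5392, 5577 and, in gastrocnemius, 93.

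Over all genes, 118 were called in gastrocnemius, against 69 with each muscle fitted alone, 77 without the arrays labelled WT diaphragm, 187 after median centring, 76 after quantile normalisation, 0 with the methods' t-test and 32 to 147 with 1 array left out. Between the WT groups 92 were called, against 45 with each genotype fitted alone, 193 among genes at or above the median signal, 0 with the methods' t-test and 39 to 105 with 1 array left out. The methods' t-test called 1989 by diaphragm label, against 5496, and 3478 in KO diaphragm minus KO gastrocnemius, against 5767. No measure of signal over background was used, so how far any signal stands above background was not examined.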
